A study of Homo sapiens with 12 samples.

Results

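The genes described here are 9 neighbours on the short arm of human chromosome 20, in band 20p12. In chromosomal order they are TRMT6, CRLS1, FERMT1, TMX4, PLCB1, PLCB4, LAMP5, SNAP25 and MKKS. They were taken by symbol from a count table of 28395 genes, and the stretch was chosen by its read counts, which were near 0 for TMX4 and PLCB1 in the empty-vector line and not in the other lines. The contrast with the empty-vector line is therefore given as a description with no test. The question was where along 20p12 the stretch without reads in the empty-vector line starts and ends.

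All libraries came from HCT116, a human colorectal cancer cell line, and held polyA RNA. HCT116EV cells (pcDNA in the labels) carried the empty pcDNA3.1 vector, and HCT116EHF cells (EHF) carried that plasmid with EHF, a transcription factor of the ETS family found in epithelia. HCT116CDX1 cells (CDX) carried a retrovirus with CDX1, an intestinal homeobox transcription factor, and were sorted for the green fluorescent protein on the same transcript. HCT116EHF+CDX1 cells (EHF-CDX1) were HCT116CDX1 cells transfected with the EHF plasmid. There were 3 libraries per line and 12 in total. By the study's methods, the empty-vector, EHF and double lines came from geneticin-resistant clones, whereas HCT116CDX1 cells were a sorted population. How many clones each line holds is not given in the sources used here, so a difference between lines and a difference between clones cannot be told apart. The labels do not say that the 3 libraries of a line were separate cultures, and the p-values then measure only the spread between these libraries.

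The libraries held between 13523007 and 74186741 counts, and 3 counts, the most that a count of 0 allows, corresponded to 0.0375 to 0.207 CPM, the share of a library's counts scaled to 1e6 and by its TMM factor. EHF averaged 299 CPM in HCT116EV cells, 19312 in HCT116EHF, 12.3 in HCT116CDX1 and 18708 in HCT116EHF+CDX1 cells. CDX1 averaged 525 CPM in HCT116CDX1 and 5419 in HCT116EHF+CDX1 cells, with at most 4 reads in any library of the other lines. Replicate 3 of HCT116EV stood apart. Its counts differed from those of replicates 1 and 2 by a chi-square over its degrees of freedom of 323 and 294, against 4.18 between those 2 libraries. Within the other lines this measure was 3.21 to 5.07 in HCT116EHF, 4.49 to 7.68 in HCT116EHF+CDX1 and 19.6 to 47.2 in HCT116CDX1. The spread within a line thus differed between lines. The study's legend to its RNA-seq clustering names 2 biological replicates, whereas 3 libraries per line were used here. The epithelial markers summed to 5308 to 5756 CPM in HCT116EV, 4673 to 4801 in HCT116EHF and 4944 to 5206 in HCT116EHF+CDX1 cells. They were lowest in HCT116CDX1 cells, at 2920 to 3508 CPM. Immune markers summed to 80.0 to 91.7 CPM in HCT116CDX1 against 2.51 to 10.9 in HCT116EV cells, and 3 of the 6 were under 0.5 CPM in every library. Of 3 immune markers tested against 1.5-fold, 2 were higher and 1 was lower in HCT116CDX1 cells. Mesenchymal markers summed to 168 to 220 CPM against 34.5 to 76.7, with 3 of 6 under 0.5 CPM throughout. Of 2 mesenchymal markers tested, 1 was higher and 0 were lower, so these sums rest on few genes.

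PLCB1 and PLCB4 encode beta isozymes of phospholipase C. Receptors coupled to Gq proteins switch these enzymes on, and they then cleave the membrane lipid PIP2 into IP3, which releases calcium from the endoplasmic reticulum, and diacylglycerol, which activates protein kinase C. TMX4 encodes a thioredoxin-related membrane protein of the endoplasmic reticulum, where proteins of this kind handle disulfide bonds. The flanking genes belong to other processes. FERMT1 encodes kindlin-1, an integrin activator of epithelial cells, CRLS1 the mitochondrial cardiolipin synthase and TRMT6 the non-catalytic subunit of a tRNA methyltransferase. SNAP25 encodes a SNARE protein of neuronal exocytosis, LAMP5 a lysosome-associated membrane protein of neurons, and MKKS a chaperonin-like protein needed to assemble the BBSome of the primary cilium.

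On GRCh38.p14 in RefSeq coordinates, TMX4 lies at chr20:7977346-8019761 and PLCB1 at chr20:8132266-8884900, with PLCB4 following at chr20:9068678-9480808. In GENCODE, TMX4 is on the minus strand with 8 exons in its canonical transcript. PLCB1 and PLCB4 are on the plus strand with 32 and 40 exons. PLCB1 has 16 protein-coding transcripts whose start sites spread over 712971 bp, and PLCB4 has 39 whose start sites spread over 98533 bp. The counts are sums over all exons of a gene and do not show which start site was in use.

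RefSeq promoter windows, 250 bases before to 50 after the start, were found for 5 of the 9 genes, 6 windows in all with 2 for MKKS. FERMT1, PLCB1, PLCB4 and SNAP25 had none. Shown are the windows of TMX4, which had almost no reads in HCT116EV cells, at chr20:8019712-8020011 on the minus strand, and of MKKS, the last gene of the set, which was expressed in all 4 lines, at chr20:10434173-10434472 on the minus strand. Capitals mark matches on either strand to GGAA, the core of ETS factor sites, and to the core that CDX factors bind, which reads TTTAT. These motifs share no letters in either window.
TMX4: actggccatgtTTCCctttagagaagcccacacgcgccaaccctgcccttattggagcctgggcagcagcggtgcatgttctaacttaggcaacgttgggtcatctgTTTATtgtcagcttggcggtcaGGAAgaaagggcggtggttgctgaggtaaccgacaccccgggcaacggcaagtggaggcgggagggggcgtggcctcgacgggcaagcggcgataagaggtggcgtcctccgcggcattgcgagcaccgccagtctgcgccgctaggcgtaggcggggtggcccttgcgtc
MKKS: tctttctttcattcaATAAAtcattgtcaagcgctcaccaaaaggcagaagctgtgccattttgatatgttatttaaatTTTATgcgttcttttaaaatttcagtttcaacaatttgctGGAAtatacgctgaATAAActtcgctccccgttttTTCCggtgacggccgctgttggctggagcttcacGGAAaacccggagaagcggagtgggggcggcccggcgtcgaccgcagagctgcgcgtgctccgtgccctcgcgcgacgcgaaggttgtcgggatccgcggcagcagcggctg
The TMX4 window held 2 GGAA and 1 TTTAT matches and 25 CpG dinucleotides at 63.3% GC. The MKKS window shown held 3, 3 and 28 at 52% GC. A second MKKS window, at chr20:10431876-10432175, held 7 GGAA and 1 TTTAT matches and 4 CpG. Of 35116 promoter windows of this length, 95.5% held GGAA and 34.9% held TTTAT, with a median of 14 CpG. The matches are letters in these windows and were not tested as binding sites.

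PLCB1 was not detected in HCT116EV cells. It had 0 reads in each of the 3 libraries, which allows up to 0.129, 0.142 and 0.0551 CPM in replicates 1, 2 and 3. In HCT116EHF libraries it had 194, 495 and 851 reads, in HCT116CDX1 306, 265 and 328, and in HCT116EHF+CDX1 424, 382 and 97. Every library of the other lines thus had PLCB1 reads and no HCT116EV library had any. The levels were 10.5 ± 0.164 CPM (SD, n = 3) in HCT116EHF, 7.28 ± 1.0 in HCT116CDX1 and 7.12 ± 0.369 in HCT116EHF+CDX1 cells. Set against the limit of 3 counts in the HCT116EV library where it is largest, these were at least 73.6-fold, 51.3-fold and 50.1-fold higher. At the level of HCT116EHF+CDX1, the lowest of the 3, the HCT116EV libraries would have held 165, 150 and 387 PLCB1 reads. The last of these is replicate 3, the library that stood apart, and it too held none.

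TMX4 was near absent in HCT116EV cells, with 1, 0 and 3 reads. It had 321, 849 and 1316 reads in HCT116EHF libraries, 277, 220 and 273 in HCT116CDX1, and 799, 870 and 185 in HCT116EHF+CDX1. The mean level was 0.0327 CPM in HCT116EV cells, where the reads are too few to compare its libraries. It was 17.1 ± 0.695 CPM in HCT116EHF, 6.22 ± 0.744 in HCT116CDX1 and 14.4 ± 1.90 in HCT116EHF+CDX1 cells (SD, n = 3 each). Over the 4 reads pooled from HCT116EV, the ratio was 423 (95% Poisson interval 165 to 1551) for HCT116EHF, 153 (59.9 to 563) for HCT116CDX1 and 356 (139 to 1306) for HCT116EHF+CDX1. These intervals, like all limits from 3 counts, cover counting error only. At the HCT116CDX1 level the HCT116EV libraries would have held 144, 131 and 338 TMX4 reads.

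PLCB4, the next gene along, had reads in every HCT116EV library but fewer than elsewhere. HCT116EV libraries had 27, 32 and 164 reads, or 1.16, 1.51 and 3.01 CPM. HCT116EHF had 259, 724 and 1198 reads, HCT116CDX1 1874, 1410 and 1495, and HCT116EHF+CDX1 1167, 1155 and 296. The groups did not overlap in CPM, with means of 1.90 ± 0.983 in HCT116EV, 14.7 ± 0.767 in HCT116EHF, 38.4 ± 2.72 in HCT116CDX1 and 20.9 ± 0.866 in HCT116EHF+CDX1 cells. HCT116EV cells thus had 12.9%, 4.94% and 9.07% of the PLCB4 level in the other lines. Replicate 3 was the highest HCT116EV library, and without it these shares were 9.14%, 3.49% and 6.40%. Of the 9 genes PLCB4 was alone in having every HCT116EV library below every library of the 3 other lines and still over 1 CPM.

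**Figure D1:**
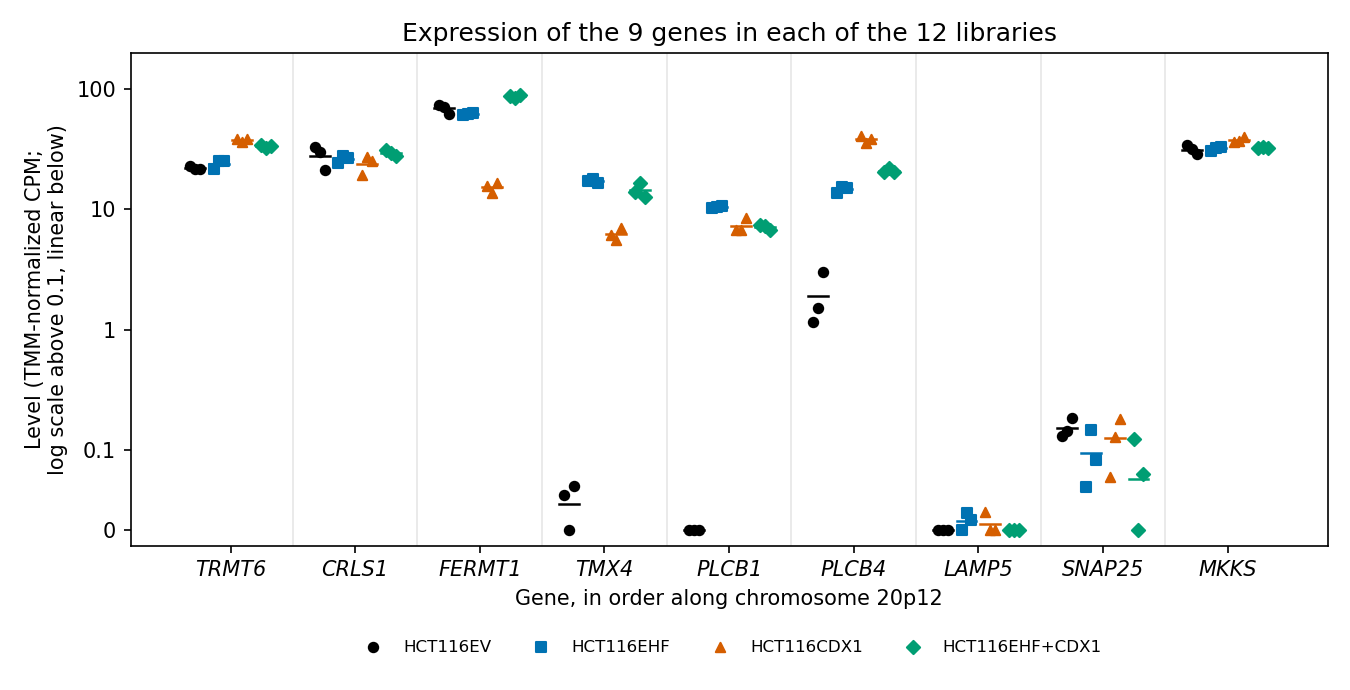
Level of each of the 9 genes in each library, in TMM-normalized CPM on an axis that is logarithmic above 0.1 and linear below; each point is 1 library and each bar the mean of a line's 3 libraries. PLCB1 lies at 0 in the 3 HCT116EV libraries, TMX4 below 0.1 and PLCB4 between 1.16 and 3.01 CPM, while TRMT6, CRLS1 and MKKS lie near the other lines.

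The genes on either side were expressed in HCT116EV cells. FERMT1, the last expressed gene before TMX4, had 1726, 1509 and 3405 reads there, or 69.4 ± 6.12 CPM, against 62.3 ± 1.30 in HCT116EHF, 15.3 ± 1.58 in HCT116CDX1 and 86.9 ± 1.99 in HCT116EHF+CDX1 cells. HCT116EV and HCT116EHF libraries overlapped, and HCT116CDX1 libraries were the lowest of all. CRLS1 had 28.0 ± 6.11 CPM in HCT116EV and between 23.9 ± 3.98 and 29.6 ± 1.71 in the other lines, all overlapping with it. TRMT6 had 22.2 ± 0.760 CPM in HCT116EV, 24.0 ± 2.01 in HCT116EHF, 37.7 ± 1.24 in HCT116CDX1 and 33.6 ± 1.01 in HCT116EHF+CDX1 cells, so it was higher in both lines with CDX1. At the far end, MKKS had 31.5 ± 2.62 CPM in HCT116EV cells, overlapping with the 32.1 ± 1.21 of HCT116EHF and the 32.6 ± 0.362 of HCT116EHF+CDX1 and below the 37.7 ± 1.69 of HCT116CDX1. LAMP5 had at most 1 read and SNAP25 at most 10 reads in any of the 12 libraries. Neither reached 0.5 CPM in 3 libraries, so these 2 genes say nothing about where the stretch ends. The other 7 passed this filter, TMX4 and PLCB1 only through the lines in which they were expressed.

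Placing the ends needed every gene around. From 2 Mb before TRMT6 to 2 Mb after MKKS there were 53 genes, of which 26 had at least 10 reads in every library of at least 1 of the lines other than HCT116EV. By a limit of at most 3 reads in each HCT116EV library, 3 of the 26 were silent, BMP2, TMX4 and PLCB1, and they were neighbours among the 26. Just inside the limit was TMX4 with up to 3 reads. Just outside were ADRA1D, an adrenergic receptor gene far before FERMT1, with 3, 2 and 16 reads and at most 20 in any library of the other lines, and LRRN4, beside FERMT1, with 5, 2 and 26. Both were picked after their values were seen. BMP2, a secreted growth factor, had 0, 1 and 1 reads in HCT116EV libraries but also 0 in each HCT116EHF library, against 345, 159 and 228 in HCT116CDX1 and 61, 12 and 8 in HCT116EHF+CDX1. It was therefore silent in 2 lines and does not place the start. TMX4 and PLCB1 were the pair silent in HCT116EV alone, over 907555 bp from the 3′ end of TMX4 to the 3′ end of PLCB1.

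The last expressed gene before them, FERMT1, ends 1854315 bp away. Between lie BMP2 and genes with too few reads in any line to judge, among them HAO1, a liver enzyme gene that had at most 1 read in a library. On the other side PLCB4 starts 183777 bp after PLCB1, so the step from 0 reads to reduced reads was placed far more closely than the step from FERMT1. PAK5, between PLCB4 and SNAP25, had at most 1 read in a library. The next expressed gene, ANKEF1, had 22.5 CPM in HCT116EV against 21.2, 32.4 and 19 in HCT116EHF, HCT116CDX1 and HCT116EHF+CDX1 cells. HCT116EV cells thus had 106%, 69.4% and 119% of the ANKEF1 level in these lines, lower than in HCT116CDX1 alone. SLX4IP, a gene of telomere upkeep, had 18.4 against 12.9, 8.56 and 10.2 CPM. JAG1, a Notch ligand, had 50.7 against 90.5, 45.5 and 66.6 CPM.

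Apart from the silent genes, 22 tested genes of this interval reached 0.5 CPM in each of the other lines. HCT116EV cells had a median of 98.1% of the HCT116EHF level over these genes, 109% of the HCT116CDX1 level and 91.7% of the HCT116EHF+CDX1 level. PLCB4 and LRRN4 were the 2 lowest against each line, LRRN4 at 13.4%, 24.5% and 8.95%. The next lowest gene was at 46.4% of HCT116EHF, 41.2% of HCT116CDX1 and 62.3% of HCT116EHF+CDX1, a different gene in each line. LRRN4 lies on the other side of the stretch and had 0.263 CPM in HCT116EV against 1.96, 1.07 and 2.93. FERMT1 lies between LRRN4 and TMX4 and was at 111%, 453% and 79.9% of the other lines.

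**Figure D2:**
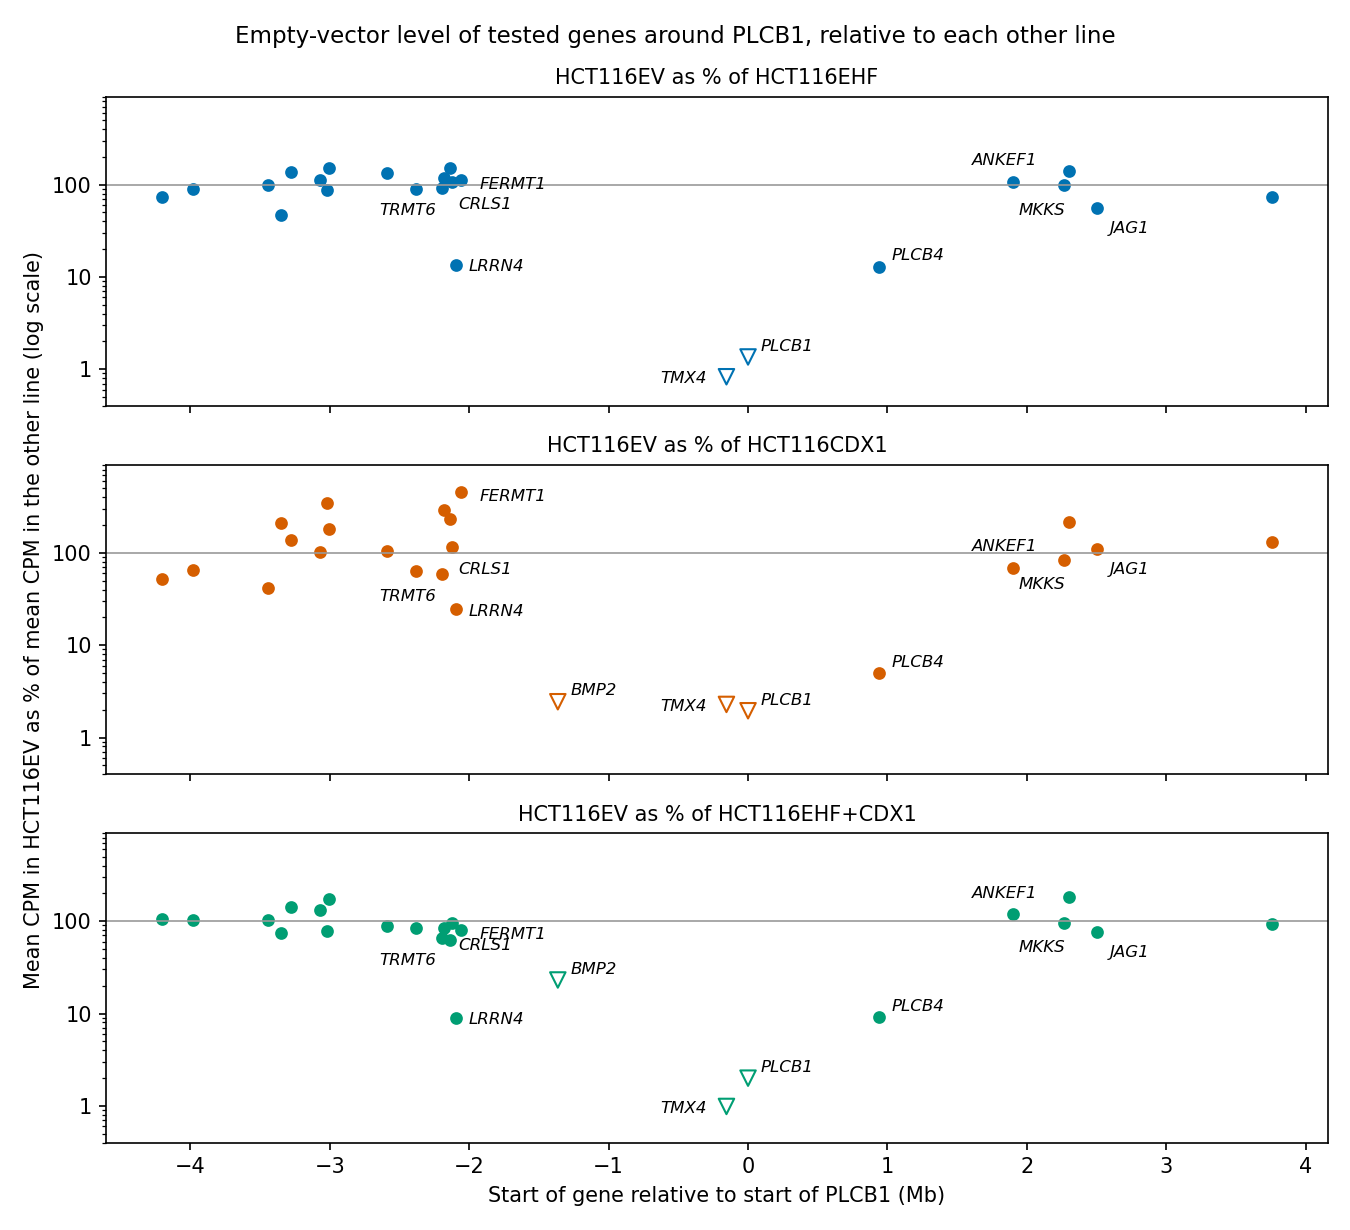
Mean CPM in HCT116EV cells as a percentage of each other line (log scale) against the start of each gene relative to that of PLCB1 in Mb, for tested genes of at least 0.5 CPM in that line. Points are measured percentages. Open triangles, for genes silent in HCT116EV, are limits from 3 counts in the HCT116EV library where that limit is largest. The limits of TMX4 and PLCB1 lie at about 1 to 2%, while the measured percentages were 0.191 to 0.527% for TMX4 and 0 for PLCB1. PLCB4 falls to a measured 4.94 to 12.9%, and ANKEF1, the next plotted gene, lies at 69.4 to 119%.

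The whole table was searched for the same pattern. Of 12376 genes with at least 1 CPM in every library of the other lines, 5 had at most 3 reads in each HCT116EV library, or 0.0404%, which is a description since TMX4 and PLCB1 were chosen this way. The others included RND3 on chromosome 2 and CCDC122 on chromosome 13. RND3 had 2, 3 and 3 reads in HCT116EV cells against 33.2 ± 0.211 CPM in HCT116EHF. TMX4 and PLCB1 were the only 2 of them that were neighbours. The same search for genes silent in HCT116EHF, HCT116CDX1 or HCT116EHF+CDX1 alone found 0 of 12134, 12560 and 12128 genes.

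This count rested on replicate 3 of HCT116EV. Without that library, 22 genes were silent and there were 4 runs of neighbours, AMIGO2 with PCED1B and TRHDE with TRHDE-AS1 on chromosome 12, CCDC122 with LACC1 on chromosome 13, and TMX4 with PLCB1. PLCB1 was the only gene of the 12376 with 0 reads in all 3 HCT116EV libraries.

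**Figure D3:**
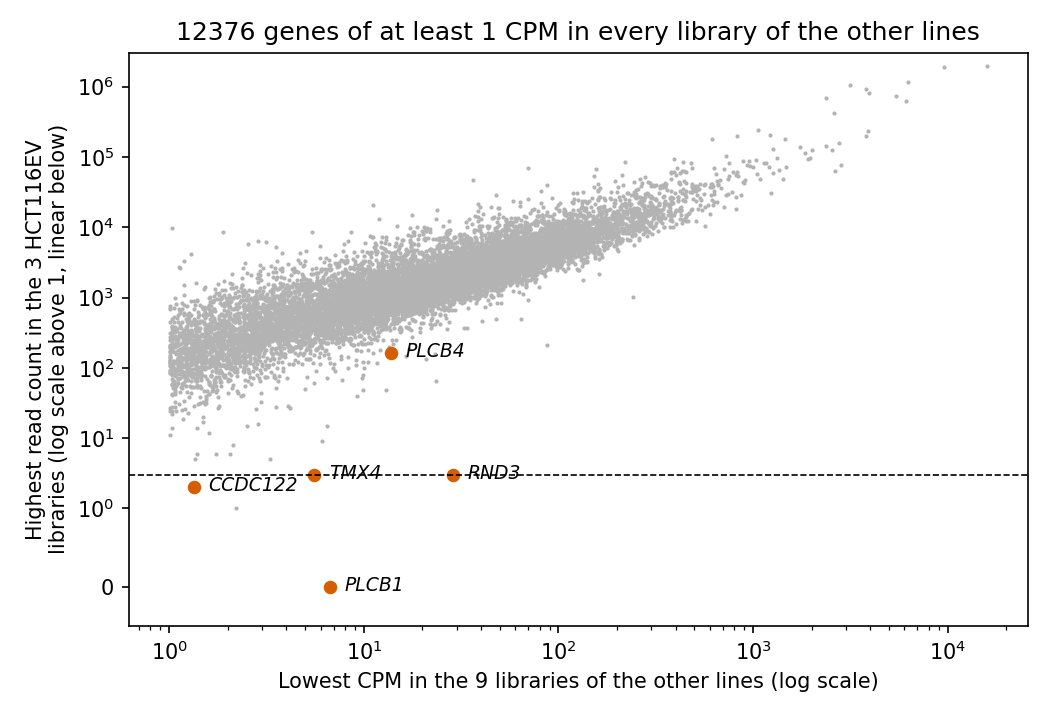
Highest read count in the 3 HCT116EV libraries (log scale above 1, linear below) against the lowest CPM in the 9 libraries of the other lines (log scale), 1 point per gene for 12376 genes; the dashed line marks 3 reads. PLCB1 lies at 0, RND3, TMX4 and CCDC122 at or under the line, and PLCB4 above it at 164 reads but below most genes of its level.

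The contrasts among the 3 lines that carried a transgene were not used in choosing the genes, although the presence of TMX4 and PLCB1 reads in these lines was. In them the 7 genes were tested with edgeR's quasi-likelihood fit over all 15853 tested genes. The fit took all 12 libraries, so the standard errors and p-values of these contrasts also depend on the spread within HCT116EV, including replicate 3. The call was a change past 1.5-fold at a Benjamini-Hochberg adjusted p of 0.05, and the p-values below are of the test against no change unless the 1.5-fold test is named. In HCT116CDX1 against HCT116EHF cells 40.3% of all tested genes were called and 3 of the 7 were called. FERMT1 fell by 2.02 on the log2 scale (SE 0.0990, adjusted p 2.04e-08) and TMX4 fell by 1.46 (SE 0.158, adjusted p 6.83e-06). PLCB4 rose by 1.39 (SE 0.217, adjusted p 1.34e-04, and 0.00151 against 1.5-fold). The libraries of these lines did not overlap for these 3 genes. TMX4 and PLCB4 thus differed in opposite directions between lines in which both were expressed. PLCB1, between them, fell by 0.52 (SE 0.140, adjusted p 0.00756) and did not pass the 1.5-fold test (adjusted p 0.765). With limma voom its difference was -0.18 and on the deposited log2 RPKM values -0.17. TRMT6 was 0.65 higher (SE 0.0864, adjusted p 3.68e-05) and MKKS 0.23 higher (adjusted p 0.0322), both short of 1.5-fold. CRLS1 differed by -0.15 (95% interval -0.50 to 0.21, adjusted p 0.448). Immune and mesenchymal marker sums were also higher in HCT116CDX1 than in HCT116EHF cells, at 80.0 to 91.7 against 13.6 to 15.0 CPM and 168 to 220 against 39.4 to 44.6 CPM. Of 3 tested immune markers 2 were called higher and 1 lower, and of 2 tested mesenchymal markers 1 was called higher and 0 lower. The sums therefore rest on few genes, and the part of these markers in the differences was not tested.

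In HCT116EHF+CDX1 against HCT116CDX1 cells, by the study's methods the line they were made from, 41% of all tested genes were called and 2 of the 7 were called. Besides EHF these lines differed in CDX1, at 5419 against 525 CPM. The part of either transgene in the differences below was not tested. FERMT1 rose by 2.50 (SE 0.101, adjusted p 6.78e-09) and TMX4 by 1.22 (SE 0.158, adjusted p 2.97e-05, and 7.90e-04 against 1.5-fold), with no overlap between libraries. PLCB4 differed by -0.87 (SE 0.215, adjusted p 0.00338) and missed the 1.5-fold test at an adjusted p of 0.0738. It passed with limma voom (adjusted p 0.0348), with only the libraries compared (0.00192) and without HCT116EV replicate 1 (0.0350) or 3 (5.07e-04). PLCB1 differed by -0.03 (95% interval -0.34 to 0.29, adjusted p 0.974) by edgeR. With limma voom it was -0.38 and on the deposited log2 RPKM values -0.41, neither past the 1.5-fold test and both below the edgeR interval, so its difference depended on the normalization. The TMX4 call did too. By limma on voom values with quantile normalization the change was 0.89 (adjusted p 0.0598 against 1.5-fold), and on the deposited log2 RPKM values 0.85 (adjusted p 0.419). For HCT116CDX1 against HCT116EHF the deposited values gave -1.11 for TMX4 (adjusted p 0.153 against 1.5-fold).

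In HCT116EHF+CDX1 against HCT116EHF cells 2.68% of all tested genes were called and 0 of the 7 were. By the test against no change 3 of the 7 passed, TRMT6 at 0.48 (SE 0.0866, adjusted p 0.00426), FERMT1 at 0.48 (SE 0.0947, adjusted p 0.00727) and PLCB1 at -0.55 (SE 0.141, adjusted p 0.0362). The share of all tested genes passing that test is not given here. The 2.68% belongs to the stricter 1.5-fold test and is no background for these 3. By limma and DESeq2 against 1.5-fold the count was also 0. TMX4 differed by -0.24 (95% interval -0.58 to 0.09) and PLCB4 by 0.51 (0.04 to 0.98, adjusted p 0.182).

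**Figure D4:**
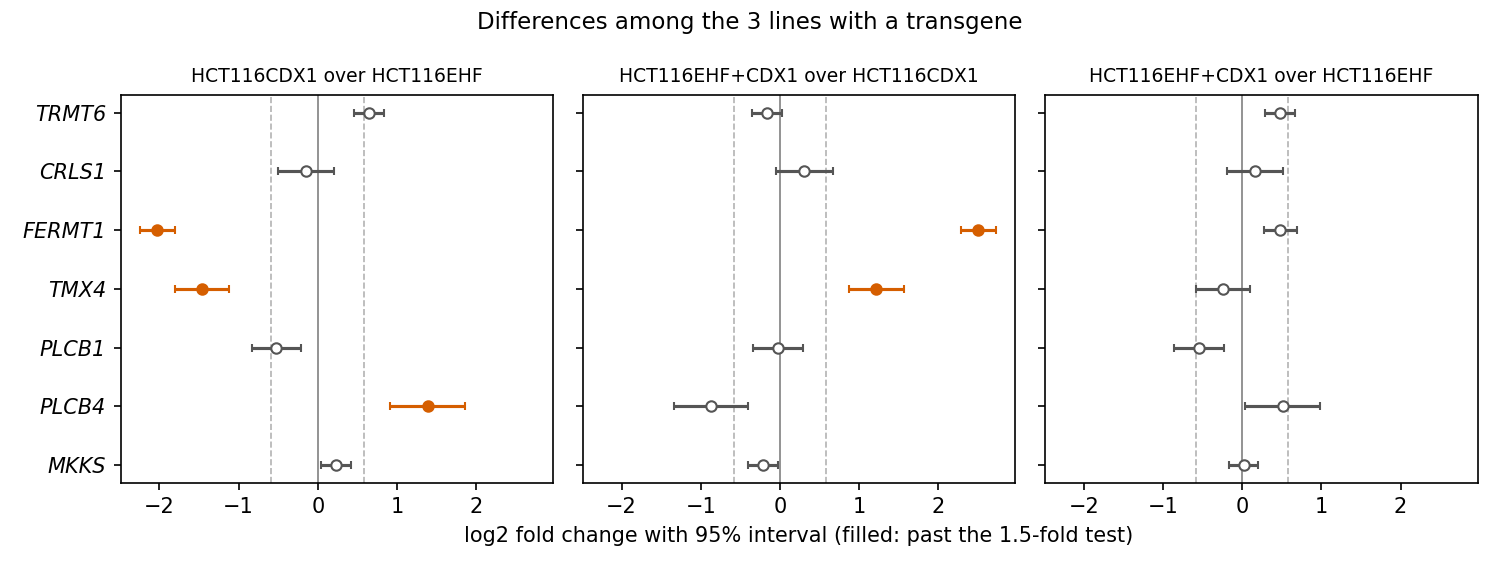
log2 fold changes of the 7 tested genes in the 3 comparisons among lines with a transgene, with 95% intervals from the edgeR fit; filled points passed the 1.5-fold test and dashed lines mark 1.5-fold in either direction. FERMT1 and TMX4 are lower in HCT116CDX1 than in both lines with EHF, PLCB4 is higher in HCT116CDX1 than in HCT116EHF, and PLCB1 stays within about 0.55 of 0.

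Levels of different genes can be compared only per length, on the deposited log2 RPKM scale. In HCT116EHF cells FERMT1 was highest at 3.67 ± 0.03, followed by MKKS at 3.33 ± 0.06 and TRMT6 at 3.32 ± 0.14, which did not differ beyond their spread, and CRLS1 at 2.54 ± 0.11. TMX4 was at 1.39 ± 0.06, PLCB4 at 0.45 ± 0.08 and PLCB1 at 0.38 ± 0.03, and the difference between the last 2 was within the SD of PLCB4. The 3 genes that were absent or reduced in HCT116EV cells were thus the lowest of the 7 per length in HCT116EHF cells. In HCT116CDX1 cells PLCB4, at 1.87 ± 0.08, was above FERMT1 at 1.72 ± 0.14, within their spread, and TMX4 and PLCB1 were at 0.28 ± 0.16 and 0.21 ± 0.17. In HCT116EHF+CDX1 cells TMX4 at 1.14 ± 0.19 and PLCB4 at 1.01 ± 0.06 did not differ beyond their spread, and PLCB1 was lowest at -0.20 ± 0.08.

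Over the 12 libraries, the log2 CPM of PLCB1 correlated with that of TMX4 at a Pearson r of 0.987 and with that of PLCB4 at 0.923, and TMX4 with PLCB4 at 0.879. These values are a description of points that fall into 4 lines, with the 3 HCT116EV libraries far below the rest. The tested genes most like PLCB1 included CDK6 (0.992), PFKP (0.988), TRHDE (0.987) and TMX4 (0.987). Those most like TMX4 were PRKAG2 (0.993), TRHDE (0.991), PAPSS2 (0.990), MT2A (0.988) and IL32 (0.988). Of these named genes, TMX4 alone is on chromosome 20. CDK6, a cell cycle kinase, had 4.12 CPM in HCT116EV against 94.4, 118 and 92.5 in HCT116EHF, HCT116CDX1 and HCT116EHF+CDX1 cells. PFKP, a glycolytic phosphofructokinase, had 244 against 402, 379 and 403 CPM, so a high correlation did not require silence in HCT116EV cells.

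Genes that work with the 9 were compared with HCT116EV cells from lists of their pathways, with the 9 left out. The 3 comparisons share the HCT116EV libraries. Of the other phospholipase C isozymes, PLCD1 was lower in each line than in HCT116EV cells. Of 10 tested, 0 rose and 1 fell in HCT116EHF (8.33% of all tested genes were called), 1 rose and 6 fell in HCT116CDX1 (44.6%), and 0 rose and 2 fell in HCT116EHF+CDX1 cells (10.4%). The called shares of 10%, 70% and 20% rest on 10 genes, and that in HCT116EHF was close to the share over all genes. The median log2 fold changes of the list were -0.39, -0.92 and -0.50, against -0.04, -0.03 and -0.03 over all tested genes. PLCD1, a delta isozyme, fell in all 3 lines, by 1.2 (SE 0.127), 1.26 (SE 0.126) and 1.48 (SE 0.128) on the log2 scale. PLCH2 fell by 3.44 in HCT116CDX1 and by 1.64 in HCT116EHF+CDX1 cells. PLCB2, a beta isozyme of blood cells, fell by 3.25 in HCT116CDX1, from 6.13 ± 1.40 CPM to 0.653 ± 0.316. PLCB3, the most abundant beta isozyme by read count, had 283 ± 49.2 CPM in HCT116EV, 230 ± 4.50 in HCT116EHF, 162 ± 9.06 in HCT116CDX1 and 208 ± 4.74 in HCT116EHF+CDX1 cells, so HCT116EV cells did not lack all beta isozymes.

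Of 38 tested genes of Gq signalling and phosphoinositide turnover, 7 rose and 0 fell in HCT116EHF, 11 rose and 10 fell in HCT116CDX1, and 6 rose and 0 fell in HCT116EHF+CDX1 cells. These were 18.4%, 55.3% and 15.8% of the list, against 8.33%, 44.6% and 10.4% of all tested genes, of which 901 were higher and 420 lower in HCT116EHF and 1158 higher and 496 lower in HCT116EHF+CDX1 cells. PRKCH, the eta isoform of protein kinase C, rose in all 3 lines, by 1.45 (SE 0.102), 1.39 (SE 0.102) and 1.12 (SE 0.102). DGKG, a kinase that removes diacylglycerol, rose by 1.60 in HCT116EHF and by 1.61 in HCT116EHF+CDX1 cells. RGS4, which shortens Gq signals, was called higher in all 3 lines but had few reads, with 0 in each HCT116EV library and 0.427 ± 0.138, 0.821 ± 0.517 and 0.766 ± 0.474 CPM in HCT116EHF, HCT116CDX1 and HCT116EHF+CDX1. GNA15, a G protein of the Gq class, rose by 3.69 and PRKCQ, the theta isoform of protein kinase C, fell by 3.27 in HCT116CDX1 cells. PIP5K1B, a kinase that makes PIP2, had at most 3 reads in any HCT116EV library and 5.25 ± 0.264 CPM in HCT116EHF+CDX1 cells. The list holds CDS2, which lies in the interval around the 9 genes.

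The partners of TMX4 and of the flanking genes were called mainly in HCT116CDX1 cells, where 44.6% of all tested genes were. Of 16 tested protein disulfide isomerase genes, relatives of TMX4, 0 were called in HCT116EHF, 2 rose and 1 fell in HCT116CDX1 and 1 rose in HCT116EHF+CDX1. The called share of this list in HCT116CDX1 was 18.75%, below that over all tested genes. TMX1 fell by 1.26 in HCT116CDX1, and AGR2, a secretory-lineage member, had at most 2 reads in any HCT116EV library and 8.30 ± 0.794 CPM in HCT116EHF+CDX1 cells. Of 10 kindlin and integrin adaptor genes, 3 rose and 3 fell in HCT116CDX1, and 1 rose in HCT116EHF+CDX1. FERMT3, the kindlin of blood cells, rose by 3.38 and 1.47 in these lines, from 1.81 ± 0.435 CPM to 19.4 ± 2.90 and 5.21 ± 1.05. FERMT3 and FERMT1 thus stood in opposite order in HCT116CDX1 cells. Of 10 genes of the BBSome and its chaperonins, 1 rose and 5 fell in HCT116CDX1, with BBS2 down by 2.0 and BBS5 by 1.96, and BBS10 was the 1 called in HCT116EHF and in HCT116EHF+CDX1, down by 1.18 and 1.53.

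Of 15 exocytic SNARE genes, 3 rose and 3 fell in HCT116CDX1, with STX1A up by 3.10, and 0 were called in HCT116EHF or HCT116EHF+CDX1. Of 4 cardiolipin synthesis genes, 2 fell in HCT116CDX1, TAMM41 by 2.02 and LCLAT1 by 1.16, and 0 were called in the other 2 lines. TRMT61A, the catalytic partner of TRMT6, fell by 0.96 (SE 0.122, adjusted p 0.00328 against 1.5-fold) in HCT116CDX1, the line in which TRMT6 was highest. Of 4 LAMP family genes, CD68 rose by 3.86 in HCT116CDX1 and by 2.05 in HCT116EHF+CDX1, and LAMP3 rose by 1.86 in HCT116EHF+CDX1. Over all these lists, 9 of 108 tested genes were called in HCT116EHF (8.33%), 53 in HCT116CDX1 (49.1%) and 13 in HCT116EHF+CDX1 cells (12%), shares near the 8.33%, 44.6% and 10.4% over all tested genes. Without replicate 3 of HCT116EV the count in HCT116EHF was 17. The share of all tested genes called without that library is not given here, so the 17 has no background beside it.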

How the data were processed

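RNA-seq was performed on 12 libraries of polyA RNA from 4 stable HCT116 lines. Per the labels and the study's methods, reads were aligned to GRCh38/hg38 with Subread (2.0.0 in the submitters' processing notes), and uniquely mapped reads over exons of NCBI RefSeq were counted with featureCounts 2.0.0. The authors deposited raw counts (28395 genes, 550 lacking a symbol) and log2 RPKM values (15853 genes), the latter made with a CPM filter, limma voom and quantile normalization. The strand setting of the counting is not given in the sources used here.

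Counts were tested with edgeR 4.0.16 under R 4.3.3. Genes of at least 0.5 CPM in at least 3 libraries were kept (15853, the deposited set), scaled by TMM factors and fitted with a quasi-likelihood model of the 4 lines. Calls used glmTreat against 1.5-fold, and standard errors and intervals came from the test against no change. Positions came from a RefSeq table of GRCh38.p14 (27745 genes), and transcripts from GENCODE. A gene was silent in a line with at most 3 reads in each library. Likeness used log2 CPM with a prior count of 2. Alternatives were limma 3.58.1 (voom, and the deposited log2 RPKM), DESeq2 1.42.0, other factors and filters, a replicate block and leaving out each library. On simulated counts for HCT116CDX1 against HCT116EHF with 15468 genes, 200 of them changed 4-fold, edgeR called 87% of the changed genes, limma 82.5% and DESeq2 83%, and none of the unchanged. The simulated lines otherwise shared a profile, whereas 40.3% of tested genes were called in the real comparison. The simulation therefore cannot show how the calls behave where so many genes differ and normalization matters.

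The members and lists were chosen with earlier results of these data known. Named were all 9 members, the silent genes and their neighbours, landmark genes of the interval, the 5 genes most like PLCB1 and TMX4, and up to 3 called genes per list with the largest change. PLCB3, LRRN4 and ADRA1D were added after their values were seen. A gene that this rule names is not reported here. Columns matched to no sample numbered 0.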

Additional observations from a re-analysis of the deposited data

How the results depend on the processing

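The test against no change called 4 members in HCT116EHF+CDX1 against HCT116CDX1 (2 past 1.5-fold), 3 against HCT116EHF (0) and 6 in HCT116CDX1 against HCT116EHF (3), and 39 partner genes in HCT116EHF (9) and 45 in HCT116EHF+CDX1 (13). The share of all tested genes passing the test against no change is not given here, so these counts have no background beside them. The deposited log2 RPKM values gave 1 member in HCT116EHF+CDX1 against HCT116CDX1. PLCB4 in that comparison passed the 1.5-fold test with limma voom (adjusted p 0.0348), with only the libraries compared (0.00192) and without HCT116EV replicate 1 or 3 (0.0350 and 5.07e-04). PLCB1 there was -0.38 with limma voom and -0.41 on the deposited values, and ranged from -0.10 to 0.080 with 1 library left out, turning from -0.03 to 0.080 without HCT116CDX1 replicate 3 and to 0.02 without HCT116EHF+CDX1 replicate 3, never past the threshold. With 0 reads as the limit the silent stretch held 1 gene and the search of all genes found 1. With 10 reads the search found 12, with 5 CPM required in the other lines 3, and without HCT116EV replicate 3 it found 22. Leaving out each library in turn gave 2 to 3, 0 to 0 and 3 to 3 members in the 3 comparisons, 7 to 17, 47 to 54 and 9 to 15 partner genes in HCT116EHF, HCT116CDX1 and HCT116EHF+CDX1, and 5 to 22 silent genes. The mean log2 CPM of each line was subtracted from its libraries, and the remaining deviations were correlated between lines. For libraries with the same number these correlations were -0.0653 to 0.0802 over 18 pairs, so the numbers do not pair them. With a replicate block the members called were 2, 0 and 3 and the partner genes 10, 53 and 12, and TMX4 in HCT116EHF+CDX1 against HCT116CDX1 was 1.22 (adjusted p 0.00220 against 1.5-fold). The shares of all tested genes called on the deposited values, with a library left out or with a replicate block are not given here. The counts of members and partner genes under these settings thus also have no background beside them. Of 300 alternatives for single genes 285 left direction and call as they were. Causes of these changes were not tested. Depth limits the HCT116EV values to 0.0551 to 0.142 CPM, and gene counts cannot place an end inside PLCB1 or PLCB4.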
